A study of Homo sapiens with 3 samples.

Results

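The genes described here are the mitochondrially encoded subunits of respiratory complex I, MT-ND1, MT-ND2, MT-ND3, MT-ND4, MT-ND4L, MT-ND5 and MT-ND6. They were chosen by gene name, and all 7 were among the 17595 endogenous genes of the count table. Every one of the 7 had counts in all 3 libraries. The study counted RNA 5′ ends per gene in HEK293, a long-established line of human embryonic kidney origin, grown in DMEM with glutamine and fetal calf serum with no treatment named in the labels. Lysates of 1000 cells with spiked control RNAs were primed with oligo(dT), reverse transcription ended in template switching at the RNA 5′ end, and material equal to 100 cells was amplified for 18 cycles. The 3 libraries form 1 group and are named by their column index, 23, 21 and 20, because the numbered replicates of the labels could not be matched to columns. Whether separate cultures were used is not stated, so p-values of ratios between genes rest on a spread between samples that may be technical. The p-values of comparisons between libraries rest on counting error only.

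Complex I, NADH:ubiquinone oxidoreductase, passes electrons from NADH to ubiquinone and pumps protons across the inner mitochondrial membrane. Its hydrophobic membrane core is made in the mitochondrion from the mitochondrial genome, while the remaining core subunits and all accessory subunits are encoded in the nucleus and imported. MT-ND2, MT-ND4 and MT-ND5 encode the antiporter-like proton-pumping subunits, MT-ND1 lies where the membrane arm meets the ubiquinone-binding site, and MT-ND3, MT-ND4L and MT-ND6 encode small membrane subunits beside it. Both strands of the genome are transcribed as long RNAs that are cut mostly at the tRNAs between the genes. Heavy-strand transcription gives most of the mRNAs, and MT-ND6 is the mRNA of the light strand, known in human cells to carry little or no poly(A) tail. MT-ND4L and MT-ND4 stay joined in a bicistronic mRNA, as do MT-ATP8 and MT-ATP6, and several reading frames gain the end of their stop codon only by polyadenylation.

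The transcript sequences, taken by gene name from GENCODE v29 (GRCh38), show these features. The MT-ND4L frame (297 bases) and the MT-ND4 frame (1378 bases) overlap by 7 bases, printed in capitals in the junction below, and counting rules have to assign tags from such a stretch to either gene.
MT-ND4L/MT-ND4 junction: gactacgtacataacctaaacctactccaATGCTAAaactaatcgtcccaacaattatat

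The last 24 bases of each frame are shown next because the 7 members differ there, with the bases of the last codon in capitals. MT-ND1 ended in TA, and MT-ND2, MT-ND3 and MT-ND4 ended in T, all incomplete stop codons. MT-ND4L and MT-ND5 ended in a complete TAA and MT-ND6 in AGG.
MT-ND1: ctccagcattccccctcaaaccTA
MT-ND2: ccccttttatactaataatcttaT
MT-ND3: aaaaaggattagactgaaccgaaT
MT-ND4: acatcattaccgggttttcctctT
MT-ND4L: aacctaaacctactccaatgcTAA
MT-ND5: ctaaccctactcctaatcacaTAA
MT-ND6: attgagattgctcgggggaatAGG

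The first 36 bases of MT-ND6 and MT-ND5, neighbours on opposite strands, are printed with the first codon in capitals to show the strand's base composition.
MT-ND6: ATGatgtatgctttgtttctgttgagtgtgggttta
MT-ND5: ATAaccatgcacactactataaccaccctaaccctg
Over its 525 bases the MT-ND6 sequence held 35.6% G and 7.05% C. The joined 6 heavy-strand frames, 5831 bases, held 10.5% G and 34.0% C. MT-ND6 lay between MT-ND5 and the tRNA gene MT-TE. No source used here gives the strand rule of the counting, so tags of MT-ND6 and tags from heavy-strand RNA across it cannot be told apart.

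Library totals were 1601555, 1384172 and 1532672 counts in libraries 23, 21 and 20. Spiked RNAs took 3.49% to 3.85% of counts, and 14736 to 15231 genes had a count. Levels are given as CPM, counts divided by the endogenous total and multiplied by 1000000, in which 1 count is worth 0.647 to 0.751 CPM. The libraries differed from each other beyond counting noise, so none was counted as a repeat of another. Of markers known from HEK293 lines, the neuronal STMN1 and UCHL1 stood at 623 and 261 CPM and the mesenchymal VIM at 340 CPM. NEFM stood at 35.6 and NEFL at 33.9 CPM, CDH2 at 47.4 CPM, and the epithelial KRT18 at 97.6 and KRT8 at 21.1 CPM. Of other cell types, 1 of 4 endothelial markers (VWF, 0.226 CPM) and 0 of 3 hepatocyte markers were listed.

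The 7 genes together took 1.34%, 1.27% and 1.18% of endogenous counts in libraries 23, 21 and 20, a mean of 1.26% ± 0.082 (SD, n = 3). All 13 mitochondrial mRNAs took 3.60%, 3.55% and 3.30%. The complex I genes made up 37.3%, 35.7% and 35.8% of those mitochondrial counts, a mean of 36.3% ± 0.90. Of the remaining 6 mRNAs, the cytochrome c oxidase genes MT-CO2, MT-CO1 and MT-CO3 averaged 6148 ± 241, 2726 ± 94.7 and 1845 ± 470 CPM. The ATP synthase genes MT-ATP8 and MT-ATP6 averaged 4909 ± 335 and 1821 ± 446 CPM, and cytochrome b, MT-CYB, 4729 ± 235 CPM.

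MT-ND4L was the most counted member, with 2806, 3466 and 3434 CPM in libraries 23, 21 and 20 (mean 3235 ± 372, rank 30 of all genes). MT-ND4, which shares its mRNA, had 3556, 2947 and 2588 CPM (mean 3030 ± 489, rank 47). Library 23 was the lowest of the libraries for MT-ND4L and the highest for MT-ND4. MT-ND1 had 2728, 2634 and 2402 CPM (mean 2588 ± 168, rank 60). MT-ND3 had 1790, 1628 and 1540 CPM (mean 1652 ± 127, rank 97). In both, library 23 was highest and library 20 lowest, and no library's value of one gene reached the values of the other.

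MT-ND2, an antiporter-like subunit, had 1729, 1195 and 1029 CPM in libraries 23, 21 and 20 (mean 1318 ± 366, rank 121). MT-ND5, of the same subunit class and with the longest frame of the 7, had 786, 790 and 770 CPM (mean 782 ± 10.5, rank 199). Library 23 stood far above the others for MT-ND2, whereas the MT-ND5 values differed little. MT-ND6 had 33.6, 22.5 and 24.4 CPM (mean 26.9 ± 5.95, rank 4712), from 52, 30 and 36 counts. The exact Poisson 95% intervals of those counts, 38.8 to 68.2, 20.2 to 42.8 and 25.2 to 49.8, overlap, and they cover counting error only. The median gene of the table stood at 7.16 CPM.

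Divided by coding length, the order of levels between the members changed in the middle and kept its ends. MT-ND4L stood first at 10894 ± 1253 CPM per kb, followed by MT-ND3 at 4775 ± 367 and MT-ND1 at 2707 ± 176 CPM per kb. MT-ND4 followed at 2199 ± 355, MT-ND2 at 1265 ± 351 and MT-ND5 at 432 ± 5.81 CPM per kb. MT-ND6 stood last on this scale too, at 51.2 ± 11.3 CPM per kb. In a 5′-end method an RNA gives at most 1 tag whatever its length, so both scales are given below.

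**Figure D1:**
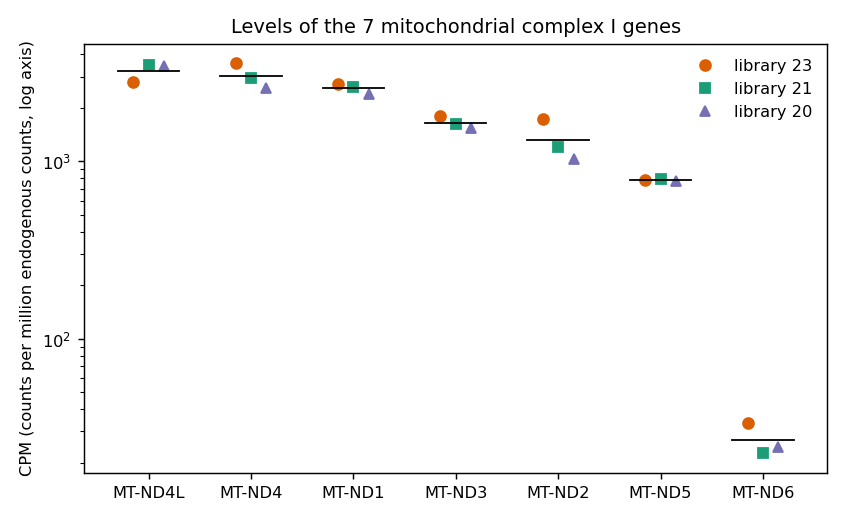
Levels of the 7 mitochondrial complex I genes in CPM on a log axis, with a point for each of libraries 23, 21 and 20 and a bar at the mean. The 6 heavy-strand genes averaged between 782 and 3235 CPM, and MT-ND6 averaged 26.9 CPM.

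All 6 heavy-strand subunits were far above MT-ND6 in counts in each library. Priming was with oligo(dT), and MT-ND6 is known to carry little or no poly(A) tail. Its RNA level and its capture thus cannot be told apart in the ratios to MT-ND6. Per library, the summed heavy-strand counts were 398, 562 and 482 times those of MT-ND6 in libraries 23, 21 and 20 (mean 481 ± 81.8). Per gene, the heavy-strand mean was 66.4, 93.6 and 80.4 times MT-ND6 (mean 80.1 ± 13.6). MT-ND6 made up 0.251%, 0.178% and 0.207% of the counts of the 7 genes. It reached its highest share in library 23, in which the heavy-strand sum was also highest.

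Each ratio was tested within libraries with edgeR's quasi-likelihood fit over all genes, with the count of MT-ND6 as the offset. By that test all 6 members were above MT-ND6, where 33.8% of 11423 genes were called above it and 49.4% below it. MT-ND4L was 126 ± 37.4 times MT-ND6 (log2 6.98 ± 0.25, SE), MT-ND4 114 ± 14.3 times (log2 6.84 ± 0.25) and MT-ND1 98.8 ± 17.9 times (log2 6.63 ± 0.25). MT-ND3 was 62.8 ± 9.51 times MT-ND6 (log2 5.97 ± 0.25), MT-ND2 48.9 ± 5.86 times (log2 5.61 ± 0.25) and MT-ND5 30.0 ± 6.01 times (log2 4.91 ± 0.24). In this design every gene carries the noise of the same reference gene, so the shared spread makes p-values too small. In an alternative added after the data were seen, log2 ratios with a pseudocount of 0.5 were set against each gene's own spread over the 3 libraries. The 6 ratios to MT-ND6 then lay between 4.87 and 6.91 with an SE of 0.099 to 0.27. An exact sign-flip test on 3 libraries cannot give a 2-sided p under 0.25.

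Per kb of coding length the 6 members also passed the edgeR test against MT-ND6, in another order, where 21.3% of all genes were called above it and 69.5% below it. The ratio to MT-ND6 was 223 for MT-ND4L, 95.3 for MT-ND3 and 54.3 for MT-ND1 on this scale. It was 43.5 for MT-ND4, 24.6 for MT-ND2 and 8.69 for MT-ND5. MT-ND5, the next gene to MT-ND6 on the genome and on the opposite strand, thus had the smallest ratio on either scale. The other 6 mitochondrial mRNAs, all heavy-strand, were called above MT-ND6 on both scales.

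**Figure D2:**
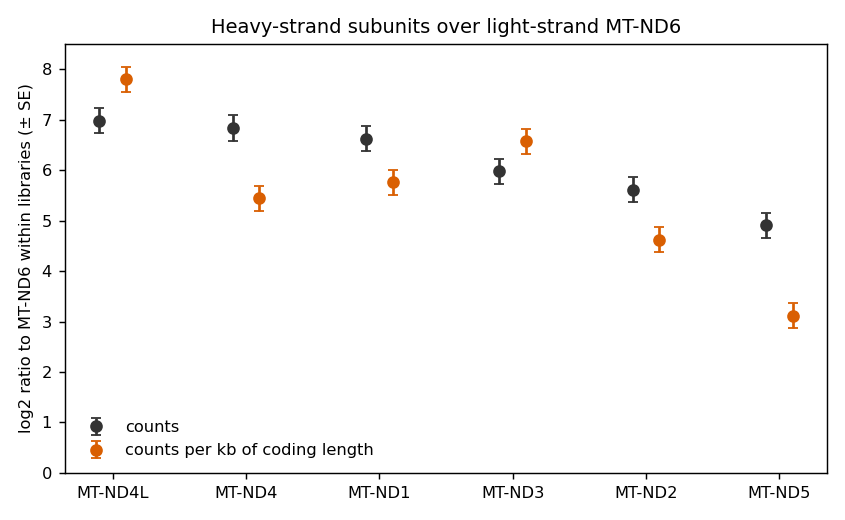
Log2 ratio of each heavy-strand complex I gene to light-strand MT-ND6 within libraries, from edgeR (± SE, n = 3), by counts and by counts per kb of coding length. By counts the ratios run between 4.91 for MT-ND5 and 6.98 for MT-ND4L, and per kb between 3.12 and 7.80.

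Few counts came from other light-strand genes. The 6 rows of light-strand tRNAs summed to 86, 44 and 64 counts in libraries 23, 21 and 20. Of these, MT-TP, the proline tRNA gene, had 60, 34 and 48 counts and was singled out after its values were seen. The light-strand counts, MT-ND6 included, were highest in library 23. MT-TS2, the most counted heavy-strand tRNA gene, had 74, 41 and 65 counts, so low tRNA counts were not particular to the light strand.

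Which gene of the bicistronic pair had more counts differed between libraries. MT-ND4L is the upstream gene, so a tag at the 5′ end of the joined mRNA would fall there. Counts of MT-ND4 thus cannot be read as the level of that mRNA, and where its tags came from was not tested. MT-ND4L had 0.789, 1.18 and 1.33 times the counts of MT-ND4 in libraries 23, 21 and 20. The edgeR fit put MT-ND4L over MT-ND4 at log2 0.13 ± 0.20 with an adjusted p of 0.50, which does not pass the threshold and does not show that the levels were equal. Among all genes, 0.149% were called above MT-ND4. Left without library 20 the ratio turned to log2 -0.026 (edgeR, adjusted p = 0.94), and without library 23 it was 0.32 (adjusted p = 0.083). Per kb of coding length MT-ND4L was above MT-ND4 by 2.35 ± 0.20 on the log2 scale (edgeR, adjusted p = 3.7e-57), where 1.11% of genes were called above MT-ND4. Its frame is the shorter, and division by fixed frame lengths makes the change from 0.13, so this p-value is no further evidence.

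MT-ND4L made up 44.1% of the pair's counts in library 23, 54.0% in library 21 and 57.0% in library 20 (mean 51.7% ± 6.76). The 95% Wilson intervals were 43.1% to 45.1%, 53.0% to 55.1% and 56.0% to 58.0%. They do not overlap, but they cover counting error only and take amplified tags as independent molecules, so they are no test of a difference between libraries. The sum of both genes varied less, with 6362, 6413 and 6023 CPM (mean 6266 ± 212). In the other bicistronic mRNA, MT-ATP8, which lies upstream, made up 66.2%, 75.6% and 77.3% of counts with MT-ATP6 in libraries 23, 21 and 20 (mean 73.0% ± 5.96). Its sum was 6865, 6891 and 6433 CPM. In both transcripts library 23 had the smallest share of the upstream frame and library 20 the largest. The frames of MT-ATP8 and MT-ATP6 overlap by 46 bases, so the split between them depends on how the authors assigned shared tags. Here too a 5′-end tag of the joined mRNA would fall in the upstream gene, so neither split gives relative levels of the frames.

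**Figure D3:**
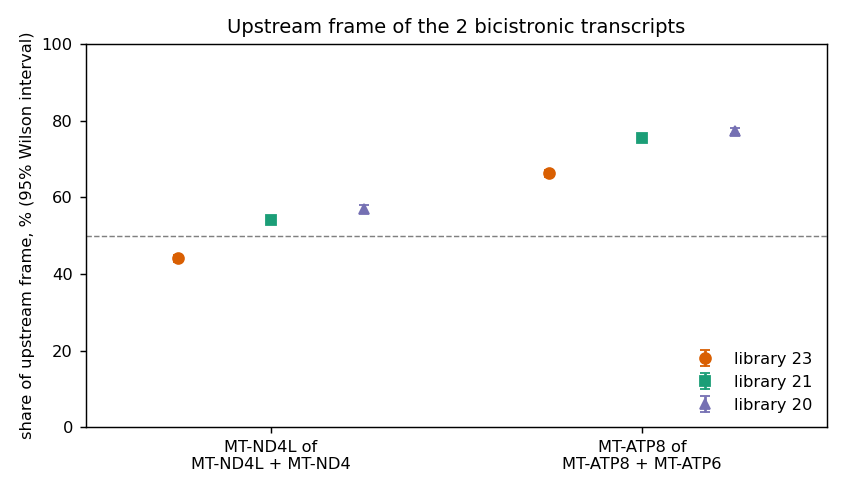
Share of the upstream frame in the counts of each bicistronic mRNA, in percent, for libraries 23, 21 and 20 with 95% Wilson intervals, which cover counting error only. MT-ND4L lies between 44.1% and 57.0% and MT-ATP8 between 66.2% and 77.3%, with library 23 lowest in both; the dashed line marks equal counts.

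Among the other neighbours in the order of CPM, MT-ND1 and MT-ND3 differed clearly, and so did MT-ND2 and MT-ND5 in the main test. MT-ND1 was above MT-ND3 by log2 0.65 ± 0.099 (edgeR, adjusted p = 1.7e-12). Among all genes, 0.762% were called above MT-ND3. Per kb this ratio turned to -0.82 (edgeR, adjusted p = 2.1e-14), where 99.3% of genes were called below MT-ND3. MT-ND2 was above MT-ND5 by log2 0.75 ± 0.057 (edgeR, adjusted p = 8.1e-19), where 1.63% of genes were called above MT-ND5. On its own spread over the 3 libraries it was 0.72 ± 0.22 (SE) and no longer passed, and without library 23 the main fit gave 0.51.

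MT-ND4 was above MT-ND1 by log2 0.22 ± 0.086 (edgeR, adjusted p = 0.0084), where 0.446% of genes were called above MT-ND1. That call was lost without library 23 (0.14, adjusted p = 0.22) and without library 21 (0.25, adjusted p = 0.22). It was also lost with MT-ND4 as the offset gene (0.21, adjusted p = 0.29) and on the ratio's own spread (0.22 ± 0.084, SE). Per kb the ratio was -0.30 (edgeR, adjusted p = 0.00055), where 98.8% of genes were called below MT-ND1. MT-ND3 over MT-ND2 was log2 0.38 ± 0.30 (edgeR, adjusted p = 0.19), where 0.762% of genes were called above MT-ND2. It passed without library 23 (0.52, adjusted p = 0.0068), with MT-ND3 as the offset gene (0.34, adjusted p = 0.00057) and per kb (1.97, adjusted p = 2.9e-17), where 1.68% of genes were called above MT-ND2. The order of MT-ND4L, MT-ND4 and MT-ND1, and that of MT-ND3 and MT-ND2, thus was not separated beyond the spread under every setting tried. As given above, MT-ND2 over MT-ND5 did not pass on its own spread either, and MT-ND1 over MT-ND3 changed sign per kb.

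Between libraries the members moved in different directions. An exact binomial test of counts against endogenous totals, adjusted over all genes and library pairs, called 5 of the 7 members between at least 1 pair: MT-ND1, MT-ND2, MT-ND3, MT-ND4 and MT-ND4L. Among all 11424 genes tested 0.560% were called, and among 318 non-mitochondrial genes of at least 500 CPM 6.92% were. Of all 13 mitochondrial mRNAs 10 were called, those outside complex I being MT-ATP6, MT-ATP8, MT-CO2, MT-CO3 and MT-CYB. Being called was thus not particular to the complex I genes. The test compares libraries of the same cells, not conditions, and covers counting error only, which more counts make finer. MT-ND6 rests on the fewest counts of the 7, and neither it nor MT-ND5 was called. Without library 23 the called members were 2, MT-ND2 and MT-ND4, and without library 20 they were 3, MT-ND2, MT-ND4 and MT-ND4L.

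MT-ND2 had the largest difference, 1.68 times as high in library 23 as in library 20 (exact binomial, adjusted p = 6.9e-57) and 1.45 times as high in library 23 as in library 21 (adjusted p = 1.4e-28). MT-ND4 was 1.37 times as high in library 23 as in library 20 (adjusted p = 3.2e-48) and 1.21 times as high as in library 21 (adjusted p = 4.7e-16). MT-ND4L, its partner on the mRNA, went the other way, with 0.817 times (adjusted p = 3.8e-19) and 0.810 times (adjusted p = 5.1e-20) as much in library 23. MT-ND3 and MT-ND1 were 1.16 times (adjusted p = 0.00011) and 1.14 times (adjusted p = 2.7e-05) as high in library 23 as in library 20. Against library 21 their ratios were 1.10 (adjusted p = 0.16) and 1.04 (adjusted p = 0.85).

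Libraries 21 and 20 were closer to each other. MT-ND2 was 1.16 times (exact binomial, adjusted p = 0.016), MT-ND4 1.14 times (adjusted p = 1.4e-05) and MT-ND1 1.10 times (adjusted p = 0.046) as high in library 21. MT-ND5 had ratios of 1.02 (library 23 over 20), 0.994 (23 over 21) and 1.03 (21 over 20), each with an adjusted p of 1 in the exact test. MT-ND6 had 1.38, 1.49 and 0.924 (adjusted p = 0.89, 0.82 and 1). Scaled to the spiked RNAs, which moved the median gene by 0.15 on the log2 scale for library 23 over 21, the same 5 members were called. Under that scaling the calls of MT-ND1 and MT-ND2 between libraries 21 and 20 were lost, and MT-ND1 and MT-ND3 were called between libraries 23 and 21. The sign of the uncalled MT-ND5 ratios changed between scalings.

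By pair, 4 members were higher and 1 was lower in library 23 over 20, where 0.210% of all genes were called higher and 0.175% lower. For library 23 over 21 the members' counts were 2 higher and 1 lower (all genes 0.166% and 0.123%), and for library 21 over 20 they were 3 higher and 0 lower (0.0700% and 0.0350%). The median log2 ratio of the 7 members was 0.22 for library 23 over 20, 0.14 for 23 over 21 and 0.080 for 21 over 20. The medians over all genes were 0.042, 0.045 and -0.0094. The 3 pairs share libraries and are not independent of each other.

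The 4 members called higher in library 23 than in library 20, MT-ND1, MT-ND2, MT-ND3 and MT-ND4, have reading frames that end in an incomplete stop codon in the sequences above. MT-ND6, which ends in AGG, was at 1.38 times but was not called, with 52 and 36 counts, so the match is only among called members. It was seen after the values and has no test. Outside complex I it did not hold throughout. MT-CO3, which ends in T, was 1.61 times as high in library 23 as in library 20. MT-CYB, which also ends in T, was at 0.973 times, and MT-ATP6, with a complete TAA, at 1.59 times. MT-ATP8 was at 0.914 times, MT-CO1 at 1.03 and MT-CO2 at 1.02.

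**Figure D4:**
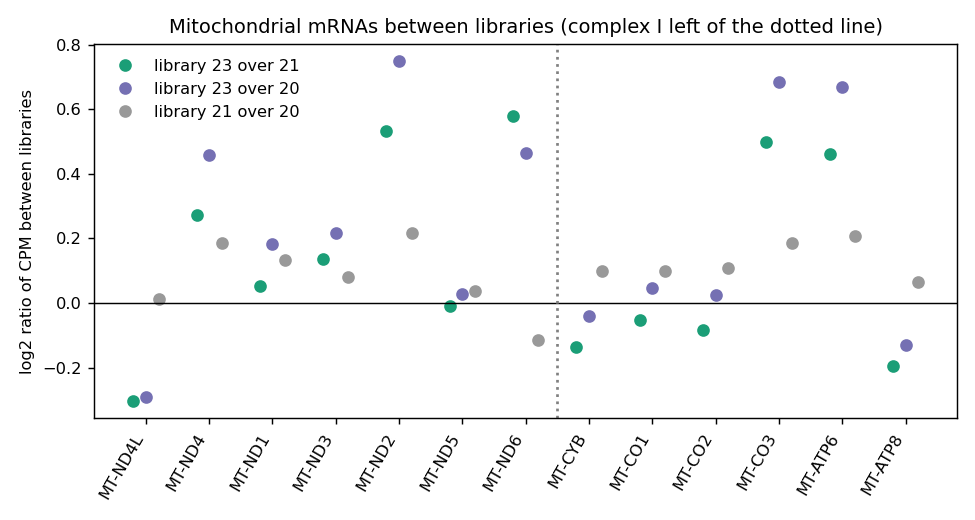
Log2 ratio of CPM between libraries for the 13 mitochondrial mRNAs, with a point per pair of libraries and the complex I genes left of the dotted line. For library 23 over 20, MT-ND2, MT-ND4, MT-CO3 and MT-ATP6 lie well above 0 and MT-ND4L below it, while MT-ND5 lies near 0.

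The spread of the members over the 3 libraries ranged widely. MT-ND5 had a coefficient of variation of 1.35%, MT-ND1 6.48% and MT-ND3 7.68%. MT-ND4L reached 11.5%, MT-ND4 16.1%, MT-ND6 22.1% and MT-ND2 27.8%. Among 318 non-mitochondrial genes of at least 500 CPM the median was 3.15% and the 90th percentile 6.69%. All these values include counting error, which weighs most on MT-ND6, with 30 to 52 counts. At 26.9 CPM, MT-ND6 also lies far below the level of that background. A low value over 3 libraries, as for MT-ND5, does not show a stable level. Of the ribosomal RNAs of mitochondria, MT-RNR1 averaged 1649 ± 23.01 CPM and MT-RNR2 3235 ± 205 CPM. MT-RNR2 was called lower in library 23 than in library 20, at 0.882 times. CPM is relative to the endogenous total, so it shows neither the number of cells nor the RNA per cell in these bulk lysates.

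The summed members deviated from their mean log2 CPM by 0.090, 0.0077 and -0.098 in libraries 23, 21 and 20. Of the genes of at least 100 CPM, the nearest nuclear ones by Euclidean distance over the 3 libraries were PYGL (0.00143), HNRNPF (0.00819), RNPS1 (0.0129), SNRNP200 (0.0139) and IRAK1 (0.0201). These distances were ranked over 1743 genes but over 3 libraries only. The nearest mitochondrial genes outside the members were MT-CO1 (0.113), MT-RNR1 (0.120), MT-CO2 (0.134), MT-CYB (0.183) and MT-ATP8 (0.245). Mitochondrial genes of at least 100 CPM numbered only 14, members included. The nuclear genes were picked from far more candidates, so distances cannot be compared between these kinds of gene.

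The nuclear subunits of the same complex had a lower median level per gene and a summed share of similar size. Of 37 nuclear subunits 35 were listed, and together they took 1.31%, 1.297% and 1.33% of endogenous counts in libraries 23, 21 and 20 (mean 1.31% ± 0.017), beside 1.34%, 1.27% and 1.18% for the 7 mitochondrial genes. Medians were 1652 CPM over the 7 mitochondrial genes and 309 CPM over the nuclear list. Per kb of coding length they were 2199 CPM per kb over the 7 and 614 CPM per kb over the listed nuclear genes. None of the 35 was called between any pair of libraries by the exact test, against the 0.560% of all genes given above. The median level of those 35 genes was below that of the 7, and fewer counts make this test less able to call.

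The 7 nuclear core subunits, which hold the flavin and the iron-sulfur clusters, had a median of 102 CPM. NDUFS8 (389 ± 25.4 CPM) and NDUFS3 (357 ± 18.5) were the most counted, and NDUFS7 (102 ± 9.40) and NDUFV1 (86.7 ± 2.94) were lower. NDUFS1, which carries several iron-sulfur clusters, stood at 68.8 ± 7.67 CPM and NDUFV2 at 13.05 ± 3.97 CPM. All 7 were below MT-ND5, the least counted heavy-strand member, in the edgeR fit by counts, where 98.2% of all genes were called below it. Per kb 5 were below it, where 94.1% of all genes were, NDUFS8 was above it and NDUFS3 was not separated (log2 0.058, adjusted p = 0.25). Against MT-ND6, 6 were higher and NDUFV2 was lower by counts, whereas per kb 4 were higher and 2 lower. Over all genes, 33.8% were above MT-ND6 and 49.4% below it by counts, and 21.3% and 69.5% per kb, as given above.

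Of the 30 accessory subunits 28 were listed, with a median of 450 CPM. NDUFB2 (1015 ± 37.1 CPM), NDUFA1 (918 ± 29.9) and NDUFS5 (794 ± 22.3) were the most counted, and NDUFC2 (27.6 ± 1.70) and NDUFA13 (3.90 ± 0.155) the least. By counts, NDUFB2 and NDUFA1 were above MT-ND5 in the edgeR fit, 24 were below it and 2 were not separated, whereas per kb of their short frames 20 were above it and 8 below. By counts 1.63% of all genes were called above MT-ND5 and 98.2% below it, and per kb 5.05% and 94.1%. Against MT-ND6, 26 were higher by counts, beside 33.8% of all genes. NDUFA13 was lower, beside 49.4% of all genes, and NDUFC2 was not separated (edgeR, log2 0.054, adjusted p = 0.83). MT-ND6 thus stood among the least counted subunit genes of the complex on the CPM scale.

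All 16 assembly factors, which help to build the complex and are not part of it, were listed, with a median of 84.2 CPM. NDUFAF3 (527 ± 21.4 CPM), C17orf89, now named NDUFAF8 (370 ± 22.4), and NDUFAF4 (265 ± 2.05) were the most counted. NDUFAF5 (24.1 ± 4.60) and NUBPL (20.9 ± 0.524), which delivers iron-sulfur clusters, were the least. All 16 were below MT-ND5 by counts, beside 98.2% of all genes. By counts 12 were above MT-ND6, beside 33.8% of all genes, and 4 were not separated. Per kb 13 of the 15 with a coding length were below MT-ND5, beside 94.1% of all genes. Against MT-ND6, 7 were above, 5 below and 3 not separated per kb, beside 21.3% of all genes above and 69.5% below.

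Of 18 nuclear factors for mitochondrial RNA 17 were listed, with a median of 68.8 CPM. SLIRP, the partner of LRPPRC in stabilising heavy-strand mRNAs, was the most counted at 958 ± 7.03 CPM and was the only one of the list above MT-ND5 in edgeR on both scales. TRMT10C (336 ± 32.7) and HSD17B10 (232 ± 5.89), parts of the enzyme that cuts the 5′ ends of mitochondrial tRNAs, came next. The mitochondrial RNA polymerase gene POLRMT (28.3 ± 8.26) and the mitochondrial poly(A) polymerase gene MTPAP (25.4 ± 2.77) were the least counted. By counts 12 of the 17 were above MT-ND6, beside 33.8% of all genes, and 5 were not separated. Per kb 5 of the 16 with a coding length were above MT-ND6 and 9 below, beside 21.3% and 69.5% of all genes. No gene of the assembly or RNA factor lists was called between any pair of libraries, beside 0.560% of all genes. The medians of both lists were far below that of the members, and fewer counts make this test less able to call.

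**Figure D5:**
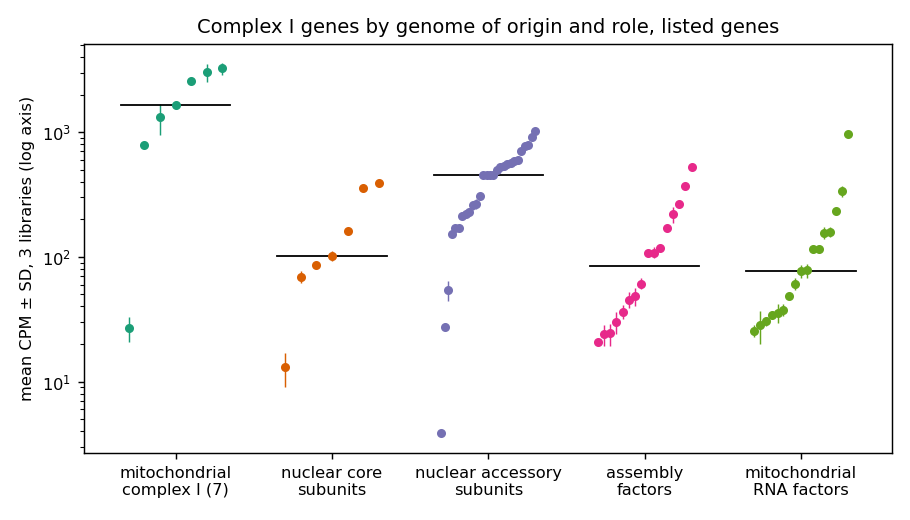
Mean CPM on a log axis (± SD, 3 libraries) of each listed gene, for the 7 mitochondrial complex I genes and the nuclear core, accessory, assembly factor and mitochondrial RNA factor lists, with a bar at the median of the listed genes. The mitochondrial genes other than MT-ND6 lie at 782 CPM and above, and MT-ND6 lies at 26.9 CPM.

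Nuclear copies of the mitochondrial genome can share tags with the members. The table had 6 rows named as pseudogene copies of members, with 66, 31 and 28 counts in all in libraries 23, 21 and 20. MTND2P28 had most of them, 55, 25 and 25 counts (35.6, 18.8 and 16.9 CPM, mean 23.8 ± 10.3). MTND4P12 had 6, 4 and 1 counts and MTND1P23 had 3, 2 and 0. MTND5P11 had 1, 0 and 1 counts, and MTND4P11 and MTND4P32 had 1 count each over all libraries. MTND2P28 was highest in library 23, as MT-ND2 was, with a ratio of 2.10 for library 23 over 20 that did not pass the exact test (adjusted p = 0.23). Against 2672, 1591 and 1518 counts of MT-ND2, these copies were few, and how the authors' counting shared tags between the copies and the mitochondrial genes is not given in the sources used here.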

How the data were processed

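RNA 5′ ends were counted in 3 libraries of HEK293 cells. The authors deposited raw counts per gene, not normalized. Per the submitters' processing notes, cutadapt 1.2.1, STAR 2.4.0a and the build hg19 (GRCh37) were used, with no role or order named. No source used here gives the counting tool, annotation, use of strand or collapsing of molecular identifiers. Of its 17675 rows, 17595 are genes and 80 spiked RNAs, and all 3 columns belong to the group.

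CPM used endogenous totals of 1545594, 1330877 and 1475769 in libraries 23, 21 and 20. Ratios between genes within libraries came from edgeR's quasi-likelihood fit (legacy dispersion) with the log count of the lower gene of each pair (MT-ND4 for MT-ND4L) as offset, over genes with 10 or more pooled counts, adjusted by Benjamini-Hochberg across these genes at 0.05. glmQLFTest takes no intercept-only null, so its F statistic was formed from the fit. Libraries were compared by 2-sided exact binomial tests, adjusted over 11424 genes and 3 pairs. Coding length was known for 88.4% of tested genes. Alternatives were limma (pseudocounts 0.5 and 5), DESeq2, filters, coding length, TMM, median-of-ratios, spike and non-mitochondrial scaling, chi-square and leaving out each library, and, added after the data were seen, each gene's own spread (a one-sample test on log2 ratios with pseudocount 0.5, outside edgeR) and the other gene as reference.

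The members and lists were chosen with earlier results of these data known. Named are the members, the other mitochondrial mRNAs and ribosomal RNAs, the 5 most counted pseudogene copies, the nuclear core, the 3 most and 2 least counted of each further list, and the 5 nearest nuclear and mitochondrial genes. The sixth pseudogene copy, MT-TP, MT-TS2, the markers and single calls fall outside this rule. Some genes that the rule or the marker lists name are not reported here. List medians take unlisted genes as 0, and 2 genes were matched by RefSeq synonyms. Lengths and sequences came from GENCODE v29 (GRCh38), not the authors' build, so no coordinates are given.

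On simulated counts of 11423 genes, the ratio fit recovered 99.0% of 2-fold and 40.6% of 1.3-fold ratios to MT-ND6 and called 4.98% of nulls, so a gene not separated from MT-ND6 may still differ from it by such a ratio. With MT-ND4 as reference it recovered 100% of 2-fold and 99.8% of 1.3-fold ratios and called 7.13% of nulls. For both references the counts were drawn with a common coefficient of variation of 0.0526, given as a fraction, on top of counting noise. Between the real libraries the coefficient of variation of CPM, counting noise included, was 16.1% for MT-ND4 and 11.5% for MT-ND4L. It was 22.1% for MT-ND6 and 27.8% for MT-ND2. The drawn value leaves counting noise out, so it cannot be set directly beside these. Recovery at other spreads was not tested, so the rates above hold only for the spread drawn. The test between libraries was tried on counts with Poisson noise only. It recovered 96.5% of 200 genes of at least 100 pooled counts with 2-fold changes in 1 library and called 7 unchanged genes. The real libraries differed beyond counting noise, so that number of false calls does not carry over to them. Tools were Python 3.11.15, numpy 2.4.6, scipy 1.17.1, pandas 2.3.3, matplotlib 3.10.9, R 4.3.3, edgeR 4.0.16, limma 3.58.1 and DESeq2 1.42.0.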

Additional observations from a re-analysis of the deposited data

How the results depend on the processing

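Of 115 alternative values of the ratios, 103 kept direction and side of the threshold. All 6 ratios to MT-ND6 passed under every alternative tried, so every change fell among the ratios between heavy-strand members. There 3 values changed sign, 4 newly passed and 5 no longer passed. MT-ND4L over MT-ND4 (log2 0.13) was 2.35 per kb of coding length and -0.026 to 0.32 with a library left out. MT-ND4 over MT-ND1 (0.22) was -0.30 per kb, 0.22 with its own spread and 0.21 with the other reference, both of which ended the call, and 0.14 to 0.28 with a library left out. MT-ND1 over MT-ND3 (0.65) was -0.82 per kb. MT-ND3 over MT-ND2 (0.38) was 1.97 per kb and 0.34 with the other reference, both of which passed, and 0.26 to 0.52 with a library left out. MT-ND2 over MT-ND5 (0.75) was 0.72 with its own spread, which ended the call. Division by fixed frame lengths accounts for the changes per kb, so the per kb calls are no further evidence of a difference. For the other changes the cause was not tested. Genes called above MT-ND6 numbered 3856, and 2151 per kb. Those above MT-ND4 numbered 17, but 112 per kb, 5 with their own spread, 23 without library 23 and 1 without library 21 or 20. Of the 7 members, 5 differed between libraries under every scaling, filter and test, and 2 to 5 with a library left out (2 without library 23, 3 without library 20). All genes called between libraries numbered 64, but 111 by TMM, 114 by median-of-ratios, 250 by spikes, and 8 without library 23, 59 without library 21 and 34 without library 20. MT-ND6 rests on 30 to 52 counts, which limits its ratios, and its capture with oligo(dT) priming was not tested. No paired analysis was possible because there is 1 group and its columns carry no replicate number. The spread of capture between spiked RNAs was not run, since their amounts were not used here.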
